A study of Mus musculus with 8 samples.

Results

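The genes described here encode the contents of the cytotoxic granule, namely 8 granzymes (Gzma, Gzmb, Gzmc, Gzmd, Gzme, Gzmf, Gzmg and Gzmk), the pore-forming protein perforin (Prf1) and the granule membrane protein Nkg7. They were chosen by symbol in the normalized table and joined to the count table by Ensembl identifier. All 10 were found among 55536 counted genes, and all 10 passed the filter on low counts that left 15998 genes for testing. RNA was sequenced from 8 orthotopic tumors of HCA-1, a mouse hepatocellular carcinoma line, grown in the liver of male C3H mice that the labels give as 6 to 8 weeks old. The 4 IMQNP tumors (replicates 1, 2, 3 and 4) came from mice given a single intravenous dose of PFSUV-IMQ at 4 mg/kg on day 17 after implantation, and the 4 Control tumors (replicates 1, 3, 4 and 5) from mice given saline, all taken 3 h later. PFSUV-IMQ is imiquimod, an agonist of the endosomal RNA sensor TLR7, loaded in phospholipid-free small unilamellar vesicles, and empty vesicles were not analysed here, so that the vesicle and its drug cannot be told apart. The comparison asks how the dose altered these transcripts in whole tumors. In such bulk RNA, fewer cells of a type and less RNA per cell cannot be told apart.

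Cytotoxic T cells and NK cells kill by releasing granules at the contact with a target cell. Perforin opens a way through the target membrane, and granzymes, which are serine proteases, then cut proteins inside the target. Granzyme B cuts after aspartate and sets off caspases, granzymes A and K cut after basic residues, and granzymes C to G are rodent proteins whose genes lie beside Gzmb. Nkg7 sits in the granule membrane and takes part in granule release. Resting NK cells of the mouse hold mRNA of granzyme B and perforin with little of the protein, and cytokines such as IL-2, IL-12, IL-15 and type I interferon raise transcription of several of these genes.

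Levels are given as normalized CPM, which are counts scaled to a common library size with edgeR's TMM factors. The Control libraries held 16883911 to 27687756 counts and the IMQNP libraries 17008151 to 18527613, and 3 counts corresponded to 0.105 to 0.21 normalized CPM, a limit that covers counting error only. A gene was called when edgeR's quasi-likelihood test gave an adjusted p under 0.05 (Benjamini-Hochberg over all tested genes) with a log2 fold change above 1 or below -1. A pair of tumors stood apart for these genes. IMQNP replicate 2 was the highest IMQNP tumor for 10 of 10 members, against 34.8% of all tested genes, and for 320 of the 362 genes called higher. Control replicate 5 was the lowest Control tumor for 9 of 10 members, against 35.5% of all tested genes. Values without each of them are therefore given below.

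The members of 1 locus had the larger differences. The 6 granzymes of the chromosome 14 cluster, Gzmb to Gzmg, were 2.69 to 4.38 times higher in the mean of the IMQNP tumors than in the mean of the Control tumors, and in each of the 6 every IMQNP tumor lay above every Control tumor, a pattern held by 6.00% of all tested genes. Gzma was also higher on average, whereas Gzmk, Prf1 and Nkg7 had overlapping groups. No member had every IMQNP tumor below every Control tumor (0 of 10, beside 3.28% of all tested genes). Under edgeR's quasi-likelihood test 0 of 10 members were called higher, beside 2.26% of all tested genes, and 0 of 10 were called lower, beside 0.200%. Of the members, 7 of 10 (Gzma and the 6 cluster genes) were higher at an unadjusted p under 0.05, which held for 8.34% of all tested genes. The call depended on the test. DESeq2 called 5 members higher (Gzmb, Gzmd, Gzme, Gzmf and Gzmg), beside 3.58% of all tested genes, and edgeR's exact test called the same 5 genes, beside 3.38%. The quasi-likelihood test with no filter on low counts called 3 (Gzmb, Gzmf and Gzmg), beside 1.41% of all genes in that fit. Without IMQNP replicate 2, 0 members were called by the quasi-likelihood test, beside 1.78% of all genes tested in that fit, and the 6 cluster genes were higher at an unadjusted p under 0.05, beside 7.01%. Without Control replicate 5 the log2 fold changes of the cluster genes ran from 1.27 (Gzmc) to 1.90 (Gzmb), and 0 members were called higher, beside 1.82% of all genes tested in that fit. Of the cluster genes, Gzmb was tested directly against other members, through its ratios to Gzma and to Nkg7 given below, and neither passed after adjustment. The ratio to Nkg7 had the smallest exact permutation p that 4 against 4 tumors allow (0.0286), which adjustment over 3 ratios made 0.0858. A single ratio at that limit could not pass, so the adjusted value does not speak against a difference.

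**Figure D1:**
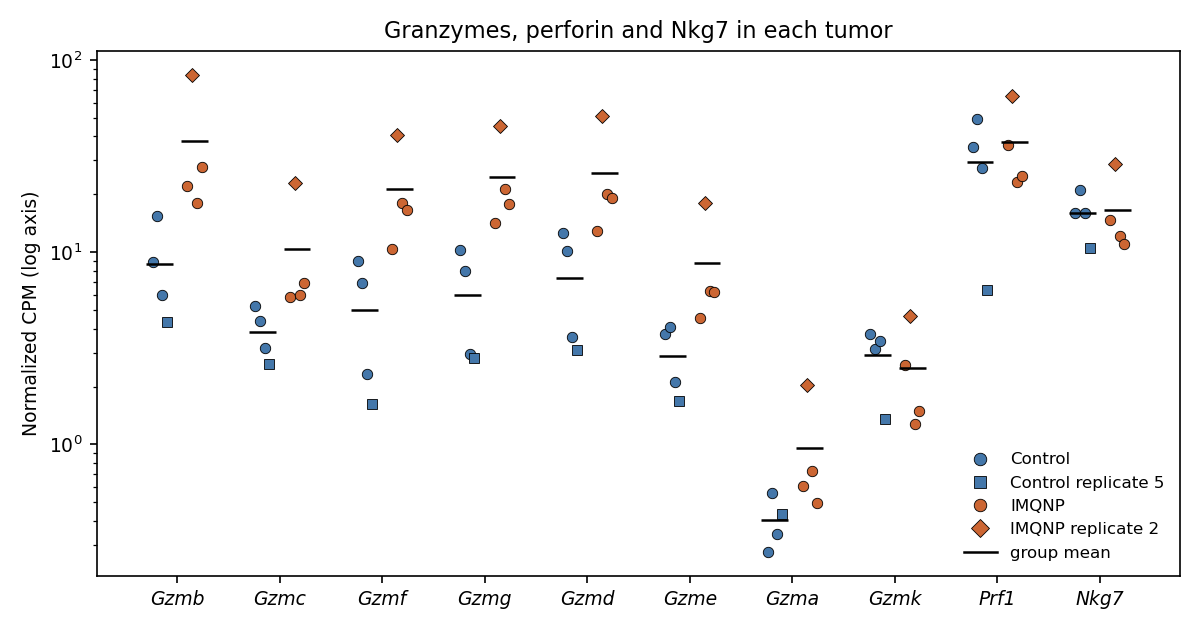
Normalized CPM (log axis) of each gene in each tumor, Control in blue and IMQNP in orange, with black bars for the arithmetic mean of the 4 tumors of a group. The squares mark Control replicate 5 and the diamonds IMQNP replicate 2, the highest IMQNP tumor for all 10 genes. The groups do not overlap for the first 6 genes and overlap for the last 4.

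The 6 cluster genes lie on the minus strand of chromosome 14 (GRCm38), with Gzmb at one edge and Gzme 141.6 kb from it, and with Gzmn, which had 2 counts in all, between Gzmf and Gzmg. As these 6 members, none with overlap between groups, lie in 1 cluster, the sequences just upstream of their starts are shown, taken from the RefSeq promoter table of GRCm38.p6 (minus strand, 5′ to 3′). In the 250 bases before the start, the promoters of Gzmc, Gzmd, Gzme, Gzmf and Gzmg were 77.2 to 95.2% identical over their 10 pairs. Gzmb was 46.4 to 52.4% identical to those 5. The alignment allowed gaps and unrelated promoters were not aligned, so the values for Gzmb have no baseline. Capitals in the first 5 lines mark the 5 words of 10 or more bases that these promoters share in order, and in the Gzmb line each copy of TGTGGT, the core of the motif bound by RUNX factors.
Gzmc: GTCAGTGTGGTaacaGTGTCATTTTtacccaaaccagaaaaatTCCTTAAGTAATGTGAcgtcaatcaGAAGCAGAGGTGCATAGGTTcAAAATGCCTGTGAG
Gzmd: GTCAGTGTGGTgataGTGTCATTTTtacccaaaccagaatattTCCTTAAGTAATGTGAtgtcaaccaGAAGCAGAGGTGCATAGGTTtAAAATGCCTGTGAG
Gzme: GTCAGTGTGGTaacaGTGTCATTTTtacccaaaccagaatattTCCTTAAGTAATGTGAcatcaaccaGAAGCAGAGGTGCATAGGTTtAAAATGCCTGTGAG
Gzmf: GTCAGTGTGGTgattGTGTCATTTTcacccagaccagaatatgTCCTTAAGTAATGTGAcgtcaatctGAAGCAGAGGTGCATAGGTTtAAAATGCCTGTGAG
Gzmg: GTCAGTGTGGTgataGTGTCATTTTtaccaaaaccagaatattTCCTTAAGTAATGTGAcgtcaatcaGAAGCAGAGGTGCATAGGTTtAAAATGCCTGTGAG
Gzmb: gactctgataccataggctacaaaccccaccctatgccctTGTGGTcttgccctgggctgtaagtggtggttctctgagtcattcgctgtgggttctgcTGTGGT
The stretches are chr14:56234668-56234770 (Gzmc), chr14:56132608-56132710 (Gzmd), chr14:56120641-56120743 (Gzme), chr14:56211443-56211545 (Gzmf), chr14:56159610-56159712 (Gzmg) and chr14:56262363-56262467 (Gzmb). Each of the first 5 holds 103 bases and lies wholly upstream of the RefSeq start. The 3 longest shared words, of 20, 16 and 14 bases, were found in these 5 promoters and in no other of 32851 promoter entries. The first word, GTCAGTGTGGT, contains the RUNX core and was present in 10 entries.

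Across the members, TGTGGT was present on either strand in the 250 bases of 9 of 10 (all but Gzmk), and in 14% of all promoter entries. Gzmc to Gzmg carry it in their first shared word, and their promoters were 77.2 to 95.2% identical. Matches among those genes, for this motif and the next, are therefore not independent of each other. The cyclic AMP response element TGACGTCA was present in Gzmc, Gzmf and Gzmg, beside 1.55% of entries. In the printed lines it begins with the last 3 bases of the third capital word and runs on into lower case, where Gzmd and Gzme differ from it. The AP-1 motif TGANTCA was present in Gzmb (6.75% of entries), the interferon-stimulated response element in Gzma (2.98%) and the STAT motif TTCNNNGAA in Nkg7 (7.02%), which also held the T-box motif AGGTGTGA (1.12%). The kappaB motif was in none of the 10, beside 1.41% of entries. These 7 motifs were chosen after the promoters had been seen, both strands were searched, and a match describes the letters only.

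Gzmb (ENSMUSG00000015437, chr14:56258838-56262260) encodes granzyme B. Its level was 8.89, 15.4, 6.01 and 4.34 normalized CPM in Control replicates 1, 3, 4 and 5 and 22.1, 83.8, 18.1 and 27.8 in IMQNP replicates 1, 2, 3 and 4. The lowest IMQNP tumor was above the highest Control tumor, and IMQNP replicate 2 held 3.8 times the median of the other IMQNP tumors. The mean was 37.9 ± 30.9 normalized CPM (SD, n = 4) after PFSUV-IMQ and 8.66 ± 4.86 (SD, n = 4) in Control. On the log2 scale the fold change was 2.12 with an SE of 0.56 and a 95% interval of 0.87 to 3.38 (edgeR quasi-likelihood, adjusted p = 0.0985). Without IMQNP replicate 2 it was 1.36 (adjusted p = 0.148), and over all 8 fits that left out 1 tumor it ran from 1.36 to 2.56. DESeq2 gave 2.14 with an SE of 0.53 and an adjusted p of 0.00218.

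Gzmg and Gzmf, rodent granzymes whose own roles are less well known than that of granzyme B, had differences close in size to that of Gzmb. Gzmg (ENSMUSG00000040284, chr14:56156582-56159579) was at 10.3, 8.01, 2.96 and 2.82 normalized CPM in the Control tumors and 14.1, 45.6, 21.2 and 17.8 in the IMQNP tumors, in the replicate order given for Gzmb. Gzmf (ENSMUSG00000015441, chr14:56205263-56211417) was at 9.03, 6.92, 2.32 and 1.63 in Control and 10.4, 40.6, 18.1 and 16.6 after PFSUV-IMQ. In both genes Control replicates 4 and 5 were well below Control replicates 1 and 3. The highest Control tumor and the lowest IMQNP tumor were at 10.3 and 14.1 for Gzmg and at 9.03 and 10.4 for Gzmf. For Gzmb they were at 15.4 and 18.1. Gzmg had the smallest p of the members, with a log2 fold change of 2.03 and an SE of 0.52 (adjusted p = 0.0859, edgeR quasi-likelihood). Gzmf had a log2 fold change of 2.1 and an SE of 0.6 (adjusted p = 0.126, edgeR quasi-likelihood). Without IMQNP replicate 2 the log2 fold changes were 1.53 for Gzmg and 1.57 for Gzmf, the largest of the members in that fit.

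Gzmd (ENSMUSG00000059256, chr14:56129556-56132608) was at 12.6, 10.1, 3.61 and 3.10 normalized CPM in the Control tumors and 12.9, 51.1, 20.1 and 19.2 in the IMQNP tumors. Here IMQNP replicate 1 exceeded Control replicate 1 by a margin far smaller than the spread within either group. That was a log2 fold change of 1.81 with an SE of 0.56 (adjusted p = 0.161, edgeR quasi-likelihood), and 1.22 without IMQNP replicate 2. Gzme (ENSMUSG00000022156, chr14:56117626-56120625) was at 3.73, 4.08, 2.1 and 1.68 in Control and 4.52, 18.0, 6.25 and 6.23 after PFSUV-IMQ. Its groups were separated by less than 1 normalized CPM, and its log2 fold change was 1.58 with an SE of 0.48 (adjusted p = 0.159, edgeR quasi-likelihood), and 0.94 without IMQNP replicate 2. Gzmc (ENSMUSG00000079186, chr14:56231441-56234656) was at 5.25, 4.39, 3.18 and 2.61 in Control and 5.85, 22.8, 5.97 and 6.89 after PFSUV-IMQ. It had the smallest difference of the cluster, with 3 of the IMQNP tumors just above Control replicate 1. For Gzmc the log2 fold change was 1.42 with an SE of 0.48 (adjusted p = 0.223, edgeR quasi-likelihood), and 0.67 without IMQNP replicate 2.

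The cluster genes share stretches of sequence. Of the 50-base words of their longest transcripts, 21.9% in Gzmd, 20.6% in Gzme, 19.4% in Gzmf, 19.8% in Gzmg and 4.14% in Gzmc also occur in another gene of the GENCODE M21 annotation, whereas Gzmb, Gzma, Gzmk, Prf1 and Nkg7 share none. The separate values of Gzmd, Gzme, Gzmf and Gzmg are therefore uncertain where the counting left out or split such reads. Gzmf also overlaps 151 exon bases of Gm4022 on the other strand, which had 0 counts in all 8 tumors. The sum of the 6 genes, in which a split of reads among them cancels, was 49.8, 48.9, 20.2 and 16.2 normalized CPM in the Control tumors and 69.9, 262, 89.7 and 94.5 in the IMQNP tumors. Gzmb made up 17.9 to 31.5% of that sum in Control and 20.1 to 32.0% after PFSUV-IMQ, so its share covered much the same range in both groups. Gzmc made up 8.99 to 16.1% in Control and 6.65 to 8.72% after PFSUV-IMQ, and Gzme 7.49 to 10.4% and 6.47 to 6.97%, the 2 genes whose shares did not overlap between groups. As the 6 shares make up 1 whole, these lower shares restate the smaller log2 fold changes of Gzmc (1.42) and Gzme (1.58). The share of Gzme also carries the uncertainty of its shared sequence.

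**Figure D2:**
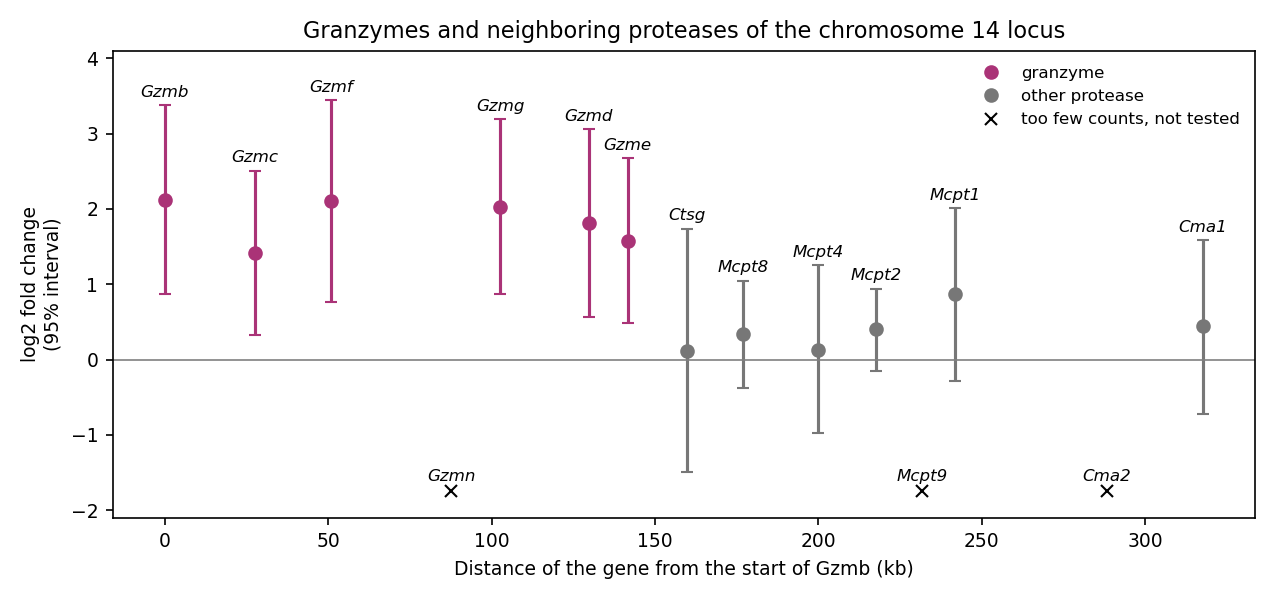
The log2 fold change (IMQNP against Control, edgeR) of each granzyme and neighboring protease gene of the chromosome 14 locus, with 95% intervals, against its distance from Gzmb in kb. The 6 granzymes lie between 1.42 and 2.12 with intervals above 0, and the 6 tested proteases beyond Gzme between 0.12 and 0.87 with intervals that include 0. The crosses mark 3 genes with too few counts to test, placed at an arbitrary height.

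Beyond Gzme the same locus holds serine proteases of other granules. Ctsg, the cathepsin G of neutrophils, had a log2 fold change of 0.12, and the mast cell and basophil proteases Mcpt8, Mcpt4, Mcpt2, Mcpt1 and Cma1 had 0.34, 0.13, 0.40, 0.87 and 0.44. All had 95% intervals that include 0, and 0 of these 6 had every IMQNP tumor above every Control tumor, beside 6.00% of all tested genes. Gzmn, with both of its counts in IMQNP replicate 3, was not tested. Its promoter was 47.6 to 53.2% identical to those of the other cluster granzymes, again with no baseline of unrelated promoters. Of the 9 other granzymes and locus proteases listed, 7 were tested, and 0 were called in either direction by edgeR's quasi-likelihood test or by DESeq2, with 0 at an unadjusted p under 0.05. Over all tested genes, edgeR's quasi-likelihood test called 2.26% higher, and 8.34% were higher at an unadjusted p under 0.05.

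Gzma and Gzmk lie together on chromosome 13 and encode the tryptase-like granzymes A and K. Gzma (ENSMUSG00000023132, chr13:113093825-113100981) was at 0.28, 0.56, 0.34 and 0.43 normalized CPM in the Control tumors and 0.61, 2.03, 0.72 and 0.50 in the IMQNP tumors. This rests on few reads, 6 to 16 counts in each Control tumor and 9 to 29 in each IMQNP tumor, and the groups overlapped through IMQNP replicate 4. Its log2 fold change was 1.21 with an SE of 0.51 (adjusted p = 0.347, edgeR quasi-likelihood), and 0.56 without IMQNP replicate 2. Gzmk (ENSMUSG00000042385, chr13:113171608-113225908) was at 3.73, 3.13, 3.44 and 1.36 in Control and 2.59, 4.68, 1.28 and 1.49 after PFSUV-IMQ. Its groups overlapped, with 3 of the Control tumors above 3 of the IMQNP tumors. For Gzmk the log2 fold change was -0.22, with a 95% interval of -1.28 to 0.83 (adjusted p = 0.912, edgeR quasi-likelihood). It was -0.73 without IMQNP replicate 2 and -0.46 without Control replicate 5.

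Prf1 (ENSMUSG00000037202, chr10:61297833-61304680) encodes perforin. It was at 35.1, 49.3, 27.5 and 6.35 normalized CPM in the Control tumors and 36.1, 65.1, 23.3 and 24.9 in the IMQNP tumors. The groups overlapped, and Control replicate 5 held 0.181 times the median of the other Control tumors. The log2 fold change was 0.33 with a 95% interval of -0.88 to 1.55 (adjusted p = 0.876, edgeR quasi-likelihood), and it was -0.10 without IMQNP replicate 2. Nkg7 (ENSMUSG00000004612, chr7:43437073-43438249) was at 15.9, 21.2, 16.1 and 10.5 in Control and 14.6, 28.6, 12.2 and 11 after PFSUV-IMQ. Leaving IMQNP replicate 2 aside, every IMQNP tumor lay below 3 of the 4 Control tumors. For Nkg7 the log2 fold change was 0.06 with a 95% interval of -0.69 to 0.81 (adjusted p = 0.97, edgeR quasi-likelihood), and it was -0.36 without IMQNP replicate 2. For Prf1 the interval includes a log2 difference above 1, and for Nkg7 it lies within 1 of 0 on both sides.

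**Figure D3:**
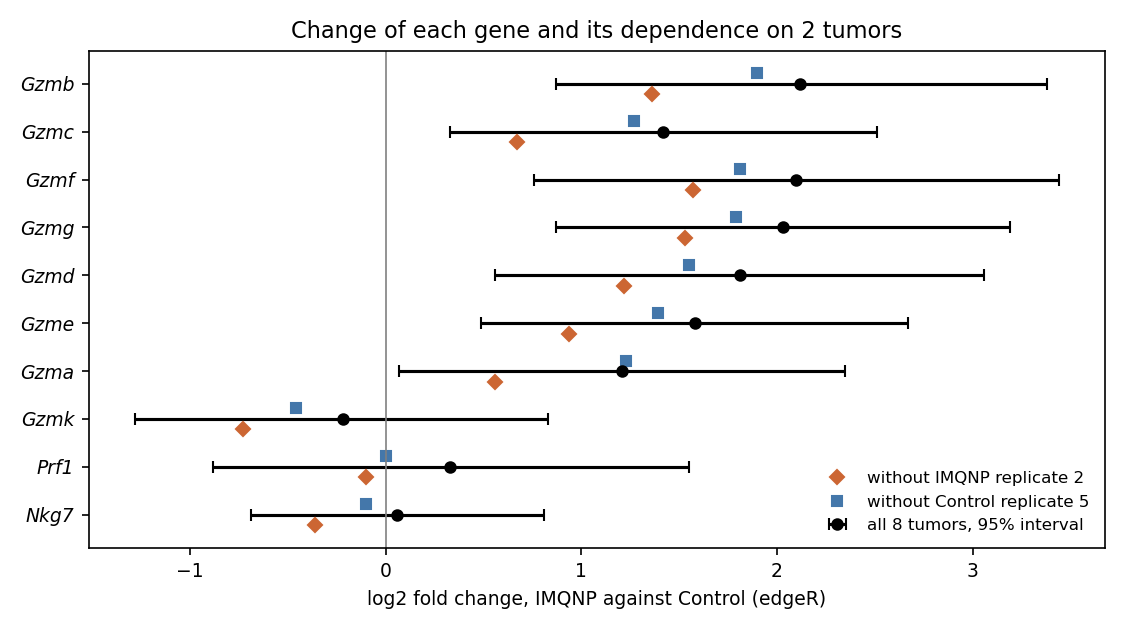
The log2 fold change of each gene with its 95% interval (black, all 8 tumors), and the value without IMQNP replicate 2 (orange diamonds) or without Control replicate 5 (blue squares). Without IMQNP replicate 2 the 6 cluster genes lie between 0.67 and 1.57, and Prf1 and Nkg7 at -0.10 and -0.36.

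Levels were compared between members only per kilobase of exon (RPKM, from normalized CPM). In the Control tumors Nkg7 had the highest level, 17.4 ± 4.77 RPKM (SD, n = 4), followed by Prf1 at 11.4 ± 6.93 and Gzmd at 7.63 ± 4.92 RPKM. Gzmg, Gzmb, Gzmf, Gzmc, Gzme and Gzmk came next, between 6.62 and 2.1 RPKM in that order, and down to Gzmk the ranges of neighbors in this order overlapped. Within each Control tumor, however, Nkg7 was above Prf1, Gzmd above Gzmg and Gzmc above Gzme. Gzma was the lowest at 0.402 ± 0.123 RPKM, with a range wholly below that of Gzmk. In the IMQNP tumors Gzmg, Gzmd, Gzmb and Gzmf had means of 27.1, 26.8, 26.4 and 23.3 RPKM, with SDs of 14.4 to 21.5 that exceed the differences among them. Nkg7 followed at 18.1 ± 8.90 RPKM and Prf1 at 14.5 ± 7.5. Gzmc and Gzme had means of 11.6 and 9.54 RPKM and ranges wholly above that of Gzmk (1.81 RPKM). The ranges of Gzmk and Gzma (0.958 RPKM) overlapped, with Gzmk above Gzma in every IMQNP tumor.

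Ratios taken within a tumor do not depend on its library size. The log2 ratio of Gzmb to Nkg7 was -0.84, -0.46, -1.41 and -1.27 in the Control tumors and 0.59, 1.55, 0.57 and 1.34 in the IMQNP tumors. Every IMQNP tumor had a higher ratio than every Control tumor. The difference of the means was 2.01, from -0.99 ± 0.43 to 1.01 ± 0.51 (SD, n = 4 each; two-sided exact permutation p = 0.0286, the smallest that 4 against 4 tumors allow; adjusted p = 0.0858 over the 3 ratios). With 1 ratio at that smallest p, no lower adjusted value was possible. The difference was 1.83 without IMQNP replicate 2 and 1.92 without Control replicate 5. The log2 ratio of Gzmb to Gzma was higher by 0.97 after PFSUV-IMQ (exact permutation p = 0.0857, adjusted p = 0.129), with overlapping groups. The log2 ratio of Prf1 to Nkg7 was higher by 0.55 (exact permutation p = 0.229, adjusted p = 0.229), and by 0.11 without Control replicate 5, a tumor in which it was -0.72 against 0.78 to 1.22 in the other Control tumors.

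**Figure D4:**
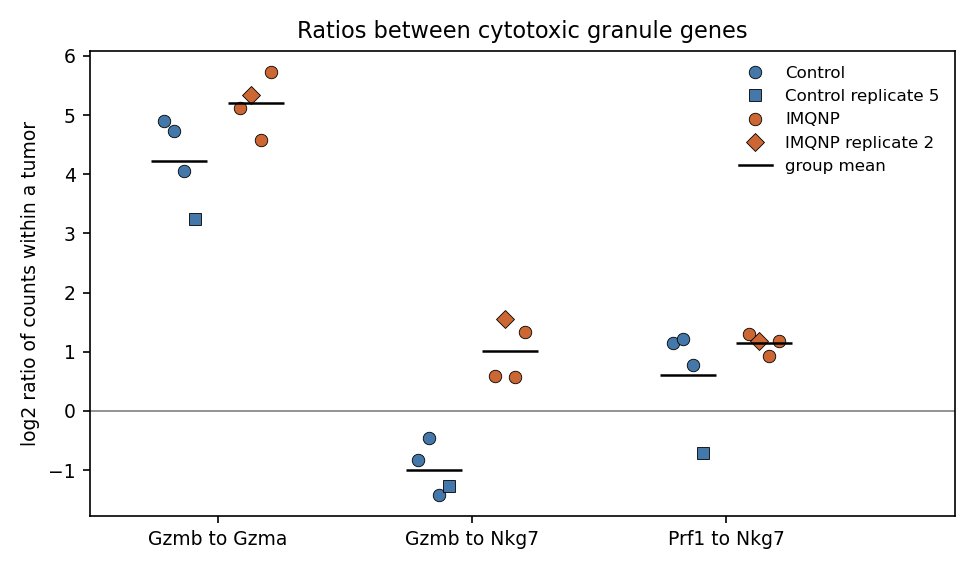
The log2 ratio of counts of 2 genes within each tumor, with black bars for group means, Control in blue and IMQNP in orange. The Gzmb to Nkg7 ratio lies between -1.41 and -0.46 in Control and between 0.57 and 1.55 after PFSUV-IMQ, and the other ratios overlap between groups.

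Likeness of pattern between genes was measured as the mean absolute difference in log2 normalized CPM after each gene was centred on its own mean, so that lower values mean closer patterns, and it describes 8 tumors, in each of which all genes come from 1 library. The closest pairs of members were Gzmd with Gzmg (0.13), Gzmf with Gzmg (0.16) and Gzmd with Gzmf (0.20), which are also among the genes that share sequence, and Gzmc with Gzme (0.20). Gzmb lay 0.36 to 0.49 from the other cluster genes, and the genes most like it were Gdap10 (0.26), AA467197 (0.27) and 9930111J21Rik1 (0.28). Of these, AA467197 (log2 fold change 2.19, adjusted p = 0.0416) and 9930111J21Rik1 (1.88, adjusted p = 0.0466) were called higher. For Gzmc, Ripk2, the kinase of the NOD receptors, was as close (0.19) as Gzme. For Gzma the closest gene was the interferon-inducible Ifi27l2a (0.12).

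Prf1 was most like Cd8a (0.25), which encodes the CD8 alpha chain, then Cyyr1 (0.27) and Fcrl6 (0.28). Nkg7 was most like Tspan13 (0.11), the costimulatory receptor gene Cd28 (0.12) and the T cell receptor signaling gene Cd3e (0.13). Gzmk was most like Hdac9 (0.13), Cd96 (0.14), a receptor of T and NK cells, and Bend4 (0.17). None of these 9 genes was called by edgeR's quasi-likelihood test, and their log2 fold changes ran from -0.35 to 0.48. As the measure includes the difference between groups, such nearness of fold changes follows from how the genes were picked, as it does for Gzmb. Nkg7 lay 0.95 to 1.14 from Gzmb, Gzmd, Gzmf and Gzmg and 0.30 from Gzmk.

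Markers of the cells that carry such granules were measured beside them. Over all 15998 tested genes, edgeR's quasi-likelihood test called 2.26% higher and 0.200% lower, and DESeq2 called 3.58% higher. At an unadjusted p under 0.05 in edgeR's test, 8.34% were higher and 744 genes were lower. With shares this small, 0 calls in a list of 7 to 15 genes do not show that its genes were unchanged. The summed level of 15 T cell markers lay between 196 and 322 normalized CPM in Control and between 176 and 347 after PFSUV-IMQ, with 0 of 15 called, 0 at an unadjusted p under 0.05 higher and 1 lower (edgeR quasi-likelihood; DESeq2 called 1 lower). The sum of the 9 tested NK cell markers was 10.4 to 40.9 in Control and 15.7 to 41.4 after PFSUV-IMQ. Of these, 0 of 9 were called by either tool, with 0 higher and 1 lower at an unadjusted p under 0.05 in edgeR's test. Genes with too few counts to test are not in that sum. Of the NK receptors, Klrb1c had 20 counts in all 8 tumors, Klra9 had 6 and Klra1 had 2. Why these counts were low in C3H mice was not tested, so they do not show that NK cells were few. Both sums were highest in IMQNP replicate 2, at 347 and 41.4, only slightly above Control replicate 3 at 322 and 40.9, whereas Gzmb was 83.8 in the former and 15.4 in the latter. The hepatocyte marker sum was also highest in IMQNP replicate 2 (40137 normalized CPM), followed by Control replicate 4 (37070), in which Gzmb was at 6.01, and it was 4767 in Control replicate 5. The neutrophil sum was 162 in IMQNP replicate 2 against 18.5 to 76.2 in the 7 other tumors, and the B cell sum 41.9 against 8.36 to 19.1. Of the tested hepatocyte, neutrophil and B cell markers, 0 of 10, 0 of 8 and 0 of 7 were called by either tool, with 0, 2 and 1 higher at an unadjusted p under 0.05. The part of these cells in the granzyme values was not tested.

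The list of inhibitors of granzymes and of other granule proteases had 2 of 8 members called higher, beside 2.26% of all tested genes. Which of these proteases the called members inhibit was not tested. Serpina3g and Serpina3f, serpins of the mouse antichymotrypsin cluster that are induced in activated leukocytes, rose by 2.40 and 2.53 on the log2 scale (edgeR quasi-likelihood adjusted p = 0.0263 and 0.0378). Serpina3g was at 35.2, 51.4, 56.2 and 37.8 normalized CPM in Control and 163, 522, 131 and 140 after PFSUV-IMQ, with no overlap. Both calls were lost when any 1 of the 4 Control tumors was left out, at adjusted p up to 0.0983 and 0.127, while without IMQNP replicate 2 both held, at log2 fold changes of 1.66 and 1.63. The remaining 6 of the 8 inhibitors were not called by edgeR's quasi-likelihood test, in which 3 of the 8 were higher at an unadjusted p under 0.05, and DESeq2 called 3 of the 8.

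The list of cytokines that raise granzyme transcription had 6 tested genes, of which 2 were called higher, beside 2.26% of all tested genes. Il15, which sustains CD8 T cells and NK cells, rose by 2.51 on the log2 scale (SE 0.34, adjusted p = 0.00432, edgeR quasi-likelihood) and stayed called in all 8 fits that left out 1 tumor. Il27 rose by 2.44 (adjusted p = 0.0286), a call lost without Control replicate 1, 3 or 5 or IMQNP replicate 3 (adjusted p up to 0.104). Il12a, Il21, Ifna4 and Ifnb1 had too few counts to test. Of 20 receptors and transcription factors, 0 were called by edgeR's quasi-likelihood test, 3 were higher at an unadjusted p under 0.05, and DESeq2 called 2 higher. The matching shares of all tested genes, for higher values, were 2.26%, 8.34% and 3.58%. Il12rb1, a subunit of the IL-12 receptor, was at 4.19 to 5.69 normalized CPM in Control and 8.16 to 26.2 after PFSUV-IMQ (log2 fold change 1.56, adjusted p = 0.0581). Il15ra, which presents IL-15, was at 8.14 to 28.9 in Control and 21.6 to 111 after PFSUV-IMQ (1.66, adjusted p = 0.193).

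Of 12 other effectors of cytotoxic lymphocytes, 1 was called higher by edgeR's quasi-likelihood test and 2 by DESeq2, and 4 were higher at an unadjusted p under 0.05. Over all tested genes these shares were 2.26%, 3.58% and 8.34%. Tnfsf10, the death ligand TRAIL, rose by 3.20 on the log2 scale (adjusted p = 0.0267, edgeR quasi-likelihood), from 4.40 to 23.4 normalized CPM in Control to 69.2 to 270.2 after PFSUV-IMQ. That call was lost without Control replicate 1 or 3 or IMQNP replicate 4 (adjusted p up to 0.0983). The machinery of the granule gave no calls in edgeR's quasi-likelihood test, which called 2.26% of all tested genes higher. Of 11 genes of granule packaging and granzyme activation 0 were called by edgeR's quasi-likelihood test or DESeq2, with 0 at an unadjusted p under 0.05, and the smallest p were those of Srgn, the granule proteoglycan serglycin (log2 fold change 0.72, adjusted p = 0.457), and M6pr, a mannose 6-phosphate receptor that sorts granzymes (0.27, adjusted p = 0.714). Of 10 exocytosis genes 0 were called by the quasi-likelihood test, 1 was higher at an unadjusted p under 0.05, and DESeq2 called 1. Stx11, a syntaxin of granule fusion, was at 11.1 to 17.8 normalized CPM in Control and 20.4 to 51.3 after PFSUV-IMQ (log2 fold change 1.16, adjusted p = 0.095), without overlap, and Lyst had a log2 fold change of -0.33 (adjusted p = 0.658).

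Of 10 granzyme substrates 0 were called by either tool, and 1 was higher at an unadjusted p under 0.05 in edgeR's test, beside 8.34% of all tested genes. Bid, of the substrate list, was at 39.4 to 45.1 normalized CPM in Control and 50.1 to 66.6 after PFSUV-IMQ, without overlap (log2 fold change 0.40, adjusted p = 0.265). The sum of the 8 tested plasmacytoid dendritic cell markers was 260 to 371 normalized CPM in Control and 533 to 781 after PFSUV-IMQ, without overlap. Of these, edgeR's quasi-likelihood test called 1, with 3 higher and 1 lower at an unadjusted p under 0.05, and DESeq2 called 2. Over all tested genes the 2 tools called 2.26% and 3.58% higher. Bst2, at 91.3 ± 21.6 (SD, n = 4) in Control and 341.8 ± 89.5 after PFSUV-IMQ, made up much of that sum. It was 102 of 371 in Control replicate 5 and 280 of 533 in IMQNP replicate 1, so the lack of overlap rested on it. Bst2 of the plasmacytoid dendritic cell list, an interferon-inducible gene also expressed by many other cells, rose by 1.90 (adjusted p = 0.00381) and stayed called in all 8 fits that left out 1 tumor. The gene lower at an unadjusted p under 0.05 was Siglech, named here after its values were seen, a receptor more particular to these cells (log2 fold change -1.11, adjusted p = 0.271). The sum of 10 mast cell and basophil markers was 80.4 to 191 in Control and 87.7 to 274 after PFSUV-IMQ. By either tool 1 of 10 was called, beside the same shares of all tested genes. Hdc, the histamine-forming enzyme of the mast cell and basophil list, rose by 2.22 (adjusted p = 0.0212), a call lost without Control replicate 1, 3 or 4. The median log2 fold change was 1.5 over the 10 members, 0.62 over the 8 inhibitors, 0.73 over the 6 tested cytokines, 0.87 over the 12 other effectors, 0.34 over the locus neighbors, 0.18 over the receptors and transcription factors, 0.07 over the granule packaging genes, -0.02 over the exocytosis genes and -0.08 over the substrates. Among markers it was 1.07 for neutrophils, 0.46 for plasmacytoid dendritic cells, 0.39 for mast cells and basophils, 0.17 for hepatocytes, 0.07 for B cells, -0.17 for T cells and -0.38 for NK cells, beside -0.03 over all 15998 tested genes.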

How the data were processed

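RNA of 8 HCA-1 tumors was sequenced (4 IMQNP, 4 Control), and groups follow the sample labels. The authors deposited whole-number counts of reads per gene, not normalized, which were the input of every test. They also deposited a table of signal values made with DESeq2 by dividing counts by a size factor, used here for symbols and for 1 added alternative. The paper's methods name TopHat and HTSeq, whereas the submitters' processing notes name Trimmomatic 0.38, HISAT2 2.1.0 and featureCounts 2.0.0. The genome build and the strand setting are not given in the sources used here. All identifiers are in GENCODE M21 (GRCm38), from which coordinates, exon lengths and 50-base words were taken. The dose and the saline control come from the methods, which also give another age than the labels.

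The members and the gene lists were chosen with earlier results of these data known. Genes were tested with edgeR 4.0.16 in R 4.3.3 (TMM, default low-count filter, quasi-likelihood test, Benjamini-Hochberg over 15998 genes) and with DESeq2 1.42.0, and the code was tested on simulated data. p-values measure the spread between these tumors only. Ratios used a prior count of 0.5 and all 70 groupings of the tumors. All 10 members have an entry in the RefSeq promoter table, and sequences were handled in Python 3.11.15 with Biopython 1.88. As no member fell below the filter on low counts, the test planned for such members gave no value. Named were the members, the called genes of each list or else the 2 with the smallest p, and the 3 genes (mean of at least 1 CPM) most like each member, of which some are printed. A gene that this rule names is not reported here. Markers are given as sums over tested genes, with single genes only where called or near 0, and 1 exception that the text names. Alternatives were the other size factors, upper-quartile scaling, no filter or at least 10 counts in every tumor, DESeq2, edgeR's exact test, no fold limit, a replicate term, a prior count of 2 and each tumor left out; DESeq2 with its default filters and the size factors of the authors' table were added after seeing the data.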

Additional observations from a re-analysis of the deposited data

Results flagged for a closer look

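In 4 of the 26 groups of 4 tumors checked, a single tumor stood far from the others by Dixon's test at the 95% level. Chance would give about 1 in 20 if values were normally distributed and groups independent. The levels were not log-transformed and the groups came from the same tumors, so the count cannot be set against that rate. All 4 concern IMQNP replicate 2, which had 2.03 normalized CPM of Gzma, 83.8 of Gzmb, 22.8 of Gzmc and 18.0 of Gzme. The same tumor had the lowest TMM factor (0.843) and the largest mitochondrial share of counts (6.65%, against 1.37 to 5.22% in the other tumors). Whether these go with its granzyme levels was not tested.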

How the results depend on the processing

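The log2 fold changes of Gzma and of the 6 cluster granzymes stayed above 0 under every alternative run, from 0.56 to 1.44 for Gzma, 1.24 to 2.56 for Gzmb, 0.57 to 1.62 for Gzmc, 1.12 to 2.19 for Gzmd, 0.81 to 1.79 for Gzme, 1.44 to 2.54 for Gzmf and 1.45 to 2.41 for Gzmg. Gzmk ran from -0.99 to 0. Of the members, 0 were called higher in the reported fit, 3 with no filter on low counts, and 5 with DESeq2, with edgeR's exact test and with DESeq2's default filters, while 0 were called in each of the 8 fits that left out 1 tumor. Over all genes, 362 were called higher and 32 lower, against 572 and 114 with DESeq2 and 618 and 133 with its default filters. The number called lower was 92 with the exact test and 63 with no filter. Leaving out 1 tumor gave 197 to 375 called higher (lowest without Control replicate 1) and 8 to 38 lower (lowest without IMQNP replicate 4). Of the listed genes, 7 were called higher, against 13 higher and 1 lower with DESeq2 and 2 to 7 without 1 tumor. Prf1 and Nkg7, at 0.33 and 0.06 in the reported fit, turned to a value at or below 0 without Control replicate 5 (0 and -0.10) and without IMQNP replicate 2 (-0.10 and -0.36), and were highest without Control replicate 3 (0.69 and 0.22). Nkg7 also turned with upper-quartile scaling (-0.02). The causes were not tested.

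Both groups have replicates numbered 1, 3 and 4. Same-numbered tumors deviated from their group means with correlations of 0.29, -0.27 and -0.32. These 3 values are too few to decide whether the numbers pair the tumors. IMQNP replicate 2 and Control replicate 5 have numbers found in 1 group only, so a replicate block takes both out of the comparison. With that block, 0 members were called, and over all genes 416 were called higher and 267 lower. The log2 fold changes with the block were -0.39 for Prf1 and -0.49 for Nkg7. The Gzmb to Nkg7 difference was then 1.74 (exact sign permutation p = 0.25, the smallest that 3 pairs allow), and it was 1.83 to 2.19 without 1 tumor. Depth limits Gzma most, with 100 counts in all 8 tumors.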
